A study of Mus musculus with 18 samples.

Results

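The genes described here are the RNA-binding protein gene Lin28b and the genes grouped with it as an oncofetal program: Hmga2, Hmga1, Igf2bp1, Igf2bp2, Igf2bp3 and Arid3a. They were taken by name, with earlier results of these data known, and all 7 are among the 20275 genes of the deposited count matrix. The study profiled bone marrow (BM) of C57B6/J mice from embryonic days 16.5 (E16.5) and 18.5 (E18.5), the day of birth (P0) and adult mice by single-cell RNA-sequencing with antibody tags. At every stage a sort of Lineage-Kit+ cells gave hematopoietic progenitors (HPs) and a sort of CD45-Ter119- cells gave stroma, and each library came from a pool of mice. E16.5 HPs have 2 libraries and every other stage and compartment has 1, so 9 mRNA libraries with 56201 cells in 140 clusters were used. The clusters are those of the authors, and their codes are printed as deposited (HSPC, hematopoietic stem and progenitor cell; MyP, LymP, EryP and MegP, myeloid, lymphoid, erythroid and megakaryocytic progenitors; UD, undefined). No group carries a mutation or a treatment, so stage and compartment are the only contrasts.

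LIN28B binds precursors of the let-7 microRNAs and blocks their maturation, and mature let-7 in turn represses messages that carry matches to its seed. HMGA2 and HMGA1 are small architectural chromatin proteins, IGF2BP1, IGF2BP2 and IGF2BP3 are RNA-binding proteins that stabilize and localize messages, and ARID3A is a DNA-binding protein known from B cells. In blood formation the Lin28b axis is known for distinguishing fetal from adult progenitors, with Hmga2 acting in stem cell self-renewal and Arid3a in fetal B lymphopoiesis.

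The let-7 family is shown first because a shared seed is what links these genes on paper. Of 11 mature mouse let-7 and miR-98 names in RefSeq (GRCm38.p6), 10 have the same bases 2 to 8, GAGGUAG, and let-7j has GAGGUAU. The lines give family members 5′ to 3′, with bases 2 to 8 in capitals.
mmu-let-7a-5p: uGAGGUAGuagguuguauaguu
mmu-let-7b-5p: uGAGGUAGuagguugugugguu
mmu-let-7g-5p: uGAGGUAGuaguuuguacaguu
mmu-miR-98-5p: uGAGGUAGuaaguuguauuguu
mmu-let-7j: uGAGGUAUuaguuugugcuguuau

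The 3′ untranslated regions (UTRs) of all 7 genes contain at least 1 copy of CTACCTC, the reverse complement of that seed, read on the message strand only. A copy was counted in 9.03% of the 21020 genes with an annotated 3′ UTR (GENCODE on GRCm38, the longest UTR of each gene). Long UTRs hold more such copies, and among genes of like UTR length the share with a match was 24.4% for Lin28b, 16.1% for Hmga2, 8.23% for Hmga1, 34.4% for Igf2bp1, 12.1% for Igf2bp2, 13.3% for Igf2bp3 and 16.4% for Arid3a. Lin28b, Hmga2 and Igf2bp1 had 4 matches each, Arid3a had 2, and Hmga1, Igf2bp2 and Igf2bp3 had 1. One site per gene is printed, the match nearest to the stop codon, on the message strand, with the match in capitals and a following A in capitals too.
Lin28b, chr10:45381011-45381040, minus strand: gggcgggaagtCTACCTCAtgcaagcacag
Hmga2, chr10:120364213-120364242, minus strand: acattcaatttCTACCTCAgcatcagttgg
Hmga1, chr17:27563281-27563310, plus strand: ctgttcacaaaCTACCTCtggacggttgtg
Igf2bp1, chr11:95961767-95961796, minus strand: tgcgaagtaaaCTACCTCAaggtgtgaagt
Igf2bp2, chr16:22059462-22059491, minus strand: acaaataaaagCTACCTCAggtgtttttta
Igf2bp3, chr6:49086776-49086805, minus strand: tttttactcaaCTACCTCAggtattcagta
Arid3a, chr10:79953899-79953928, plus strand: caagtttctttCTACCTCAggtcttttgat

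A match describes the letters of the UTR and not a site in use. The let-7 RNAs themselves were not measured, since the libraries capture polyadenylated 3′ ends. Hmga1 has a near copy elsewhere in the genome, Hmga1b: of 410 windows of 91 bases in the last 500 bases of the Hmga1 message, 319 (77.8%) occur exactly in Hmga1b, so Hmga1 counts are uncertain. No other gene of the list overlaps a gene on its strand apart from Mir763 inside Hmga2 and Mir3063 inside Igf2bp1.

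Levels are given as CPM: the unique molecular identifiers (UMIs) of a gene, summed over all cells of a library, class or cluster, for each 1000000 UMIs of those cells. Intervals in parentheses are exact Poisson 95% intervals, exact conditional ones for ratios, and cover counting error only. Outside E16.5 HPs there was 1 library per group, so a difference between those groups has no replicate check. The HP libraries held 560 to 6208 cells and 13974733 to 127489333 UMIs, and the stromal libraries 6267 to 14084 cells. The median adult HP cell was at 6747 UMIs against 12364 to 23291.5 in the other HP libraries.

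Some cells share their 16-base barcode with a cell of another library. There were 1102 such barcodes, and the 1370 cells that were not the largest of their barcode are called copies here. A copy held a median of 626 UMIs, 2.13% of the UMIs of the largest cell. In the adult HP library 694 of 5985 cells (11.6%) were copies, and the largest cell of the barcode was in the first E16.5 HP library for 329 of them and in the E18.5 HP library for 296. The share was 4.01% in the P0 HP library and 0.357% to 2.99% in the others. Copies made up 81.9% of the adult mast cells, and for 255 of those 263 cells the largest cell was in the first E16.5 HP library. Without copies, adult HP levels (in CPM, the unit described above) were 0.0856 for Lin28b, 6.26 for Hmga2, 36.7 for Hmga1, 0.0342 for Igf2bp1, 2.16 for Igf2bp2, 13.3 for Igf2bp3 and 31.4 for Arid3a. Levels below include copies unless the sentence says otherwise, while ratios of HPs to stroma, ratios within classes and shares of cells with a UMI leave copies out. Clusters are ranked among those with at least 50 cells, a median of at least 1000 UMIs and under 50% copies. The 8 HP clusters with a lower median are not ranked, and some of their levels, from few UMIs, lie above the ranked ones: examples are given beside the ranks. Copies were 97.6% of E18.5 Mast/Bas, 76.3% of P0 Mast4, 92.0% of adult Mast4i, 65.0% of Mast4ii and 47.8% of MyP4 cells. They were 33.9% of adult Stroma, 13.5% of E18.5 UD2ii and 3.92% of E18.5 UD2i cells.

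**Figure D1:**
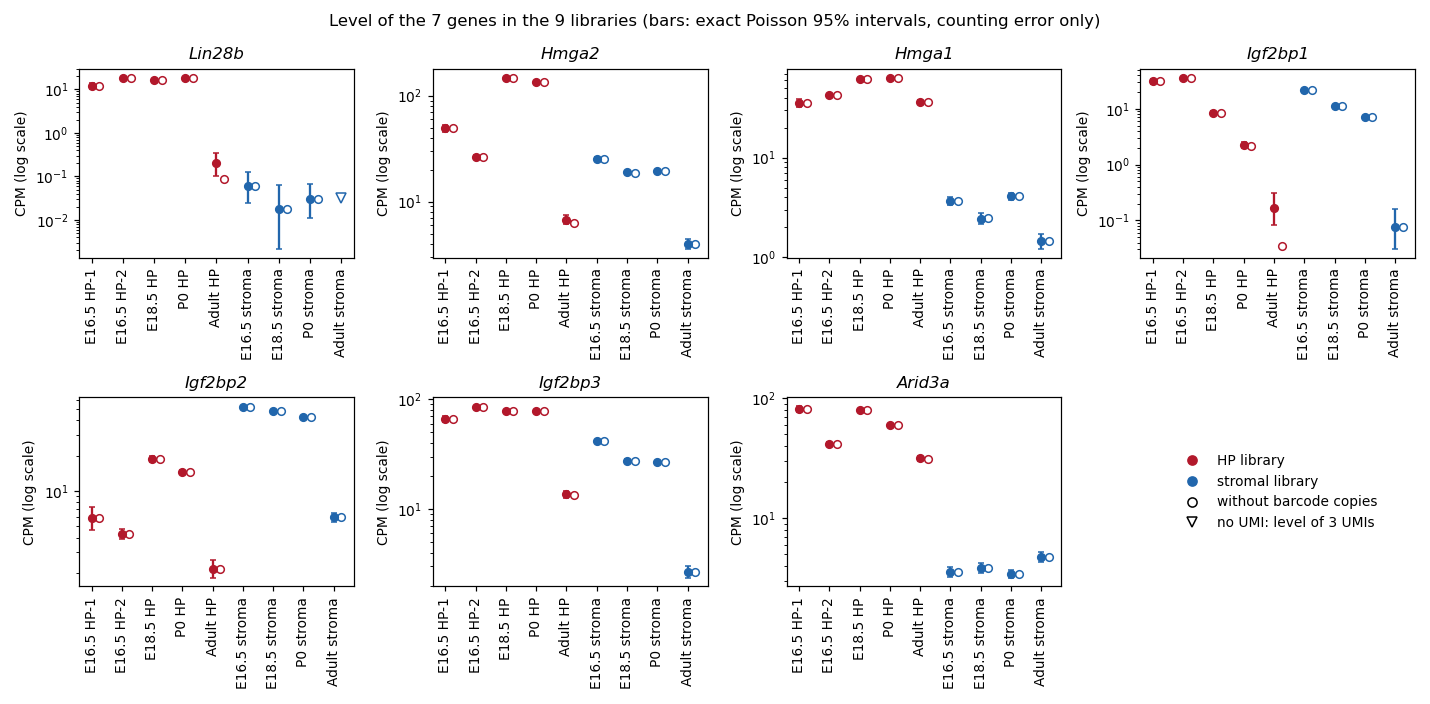
Level of each gene in the 9 libraries, in CPM on a log axis, with exact Poisson 95% intervals (counting error only); open circles leave out barcode copies and the triangle is the level that 3 UMIs would give, for a library with none. Lin28b, Hmga1 and Arid3a sit higher in HP libraries of E16.5 to P0 than in the stroma, Igf2bp2 sits higher in stroma, and the adult value is the lowest HP value for all genes but Hmga1.

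Lin28b, the regulator of let-7 maturation, was at 11.9 and 18.3 CPM in the 2 E16.5 HP libraries, at 16.3 at E18.5, then 17.9 at P0 and 0.203 in adult HPs. The E18.5 and P0 values lie between both E16.5 values, and the adult lies far below all 4. The adult value rests on 12 UMIs in 11 cells, of which 7 were in copies, and outside copies and clusters of few UMIs 2 Lin28b UMIs were left. The ratio of P0 to adult HPs was 88.5 with all cells and 209 (89.5 to 645) without copies. It was 350 in cells of at least 1000 UMIs, 25.3 with classes weighted equally and 5.79 as a mean of per-cell CPM, so P0 was higher each time but the size depends on how cells are weighted.

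In edgeR's quasi-likelihood test over the 5 HP libraries, 2.35% of 16114 genes passed a Benjamini-Hochberg adjusted p of 0.05 between adult and E16.5 HPs, 0.993% lower and 1.35% higher in the adult. Lin28b and Igf2bp1 were the 2 of 7 genes that passed, both lower in the adult. For Lin28b the log2 fold change was -6.04, with an edgeR adjusted p of 0.0135, and -7.30 without copies (edgeR adjusted p 0.00226). The fit has 1 residual degree of freedom, from the E16.5 pair, so it assumes that the single libraries vary as that pair does. The pair held 560 and 4752 cells and differs in cell mix. Mast-coded cells had 7368325 of 13974733 UMIs in the first library and 32683883 of 95833532 in the second. How far cell mix adds to the spread of the pair was not tested. Against the same E16.5 libraries 0.00621% of the genes passed at E18.5, all of them higher, and 0.292% at P0, with 0.168% higher and 0.124% lower. None of the 7 genes passed at E18.5 or P0. At an unadjusted p under 0.05, 1047 genes passed at E18.5 and 1368 at P0. In summed libraries, fewer cells of a type and less RNA per cell cannot be told apart.

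Stroma held next to no Lin28b. There were 7, 2, 6 and 0 UMIs in the E16.5, E18.5, P0 and adult stromal libraries, and without copies HPs were 291-fold (141 to 724) above stroma at E16.5 and 579-fold (266 to 1580) at P0. Of the 7 UMIs at E16.5, 6 were in the cluster UD1 (9.38 CPM, 3.44 to 20.4), whose leading genes were the neuronal genes Rtn1, Tubb3 and Stmn3.

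Among HP clusters Lin28b was highest in B cells at each stage before adulthood. At E16.5 Bcell1 was at 36.1 CPM (29.5 to 43.7), followed by TCell6 at 30.8, TCell3 at 26.7 and HSPC1 at 21.8, and the mast clusters lay at 7.66 to 11.6. At E18.5 Bcell1 led again at 25.4 CPM, MyP1 and EryP/MegP followed at 20.3 and 20.0, and Mono1iii had no UMI. At P0 BCell2 was at 49.5 CPM from 12 UMIs (25.6 to 86.4), Bcell1 at 23.7, LymP at 23.5 and the HSPC clusters at 16.9 to 21.5, while DC3 was lowest at 4.34. Mast4, the unranked P0 cluster of few UMIs, held 5 Lin28b UMIs, a level above that of Bcell1. At E18.5 and P0 monocyte, dendritic and mature granulocyte clusters formed the low end, and the intervals of the leading 3 clusters of each stage overlap between neighbours. In the adult, 12 of the 14 HP clusters of at least 50 cells and a median of 1000 or more UMIs had no Lin28b UMI. With copies MyP4, a cluster of few UMIs, was at 13.5 CPM from 8 UMIs and Mast4ii held 1. Without copies the whole adult MyP class, MyP4 included, held 2 Lin28b UMIs.

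The clusters were also pooled into classes, and without copies adult HSPCs (622 cells) had 0 Lin28b UMIs, against 19.4 CPM in P0 HSPCs, which makes P0 at least 34.9-fold higher when the adult is set at 3 UMIs. The bound was at least 48.8-fold for B cells and at least 112-fold for erythroid and megakaryocytic cells. After thinning each cell to 1000 UMIs, 2.54% of E16.5, 2.06% of E18.5 and 2.68% of P0 HSPCs carried a Lin28b UMI, against 0 of 619 adult HSPCs (with copies, in another random draw, 3.03%, 1.80% and 1.59% against 0 of 625), which allows a share of up to 0.485% when set at 3 cells, and 0 of 6055 P0 chondrocyte-coded stromal cells. Before thinning 31.4% of P0 HSPCs and 0 of 622 adult HSPCs had a Lin28b UMI, with medians of 18755 and 7618 UMIs per cell. These limits concern cells with a UMI at this depth and not cells that express the gene.

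**Figure D2:**
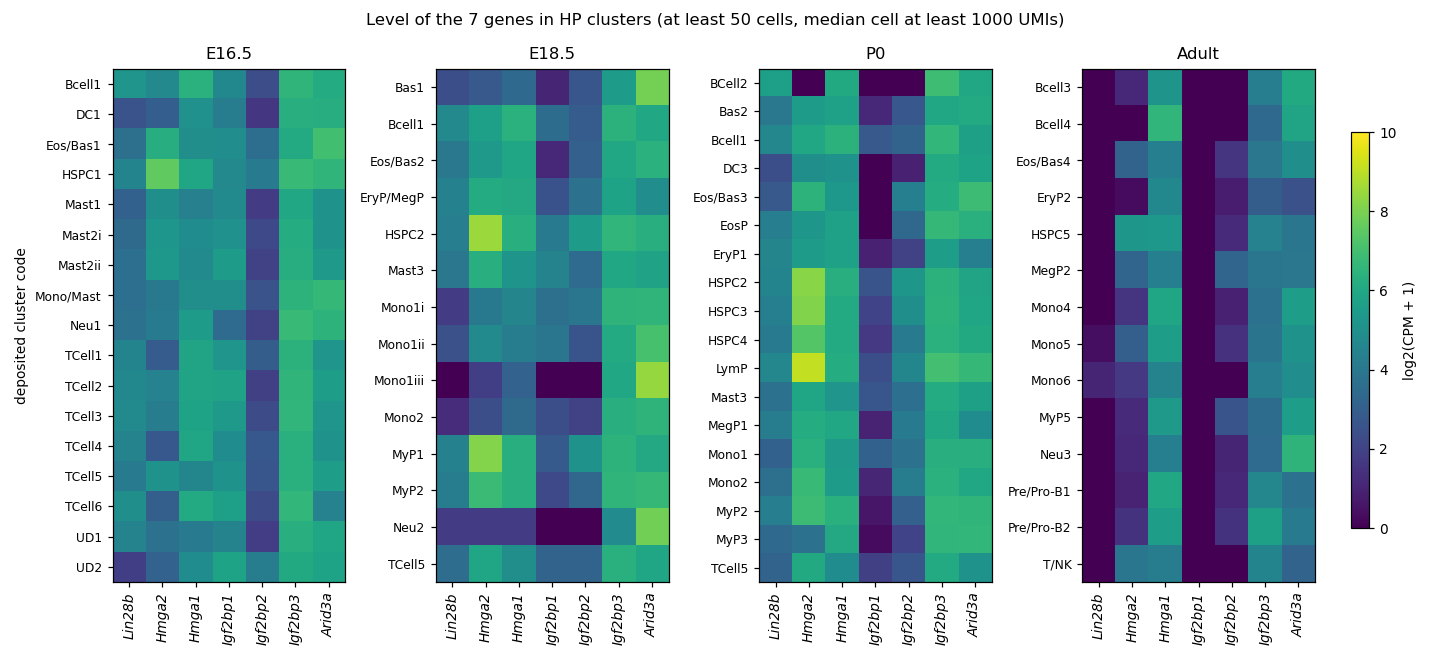
Level of the 7 genes in HP clusters of at least 50 cells, a median of at least 1000 UMIs and under 50% copies, as color on a log2(CPM + 1) scale, with clusters in rows, genes in columns and 1 panel per stage. Hmga2 is brightest in HSPC, LymP and MyP1 clusters, Igf2bp3 is even over clusters from E16.5 to P0, Arid3a is brightest in Mono1iii, Bas1 and Neu2 at E18.5, and in the adult panel the Igf2bp1 column is at 0 throughout and the Lin28b column in 12 of 14 clusters.

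Hmga2, the chromatin protein gene best known as a let-7 target, was at 49.4 and 26.4 CPM in the 2 E16.5 HP libraries, at 147 at E18.5, then 135 at P0 and 6.76 in adult cells. Both later perinatal values lie above both E16.5 values and the adult value lies below all others. The edgeR log2 fold change against E16.5 was 1.87 at E18.5 (adjusted p 0.372), 1.85 at P0 (adjusted p 0.285) and -2.29 in adult cells (adjusted p 0.124), so none of the 3 passed by edgeR's test. DESeq2 gave the adult an adjusted p of 0.00227. The cell types sorted differ by stage: T-coded and mast-coded cells were 2159 and 2063 of the E16.5 HP cells, whereas HSPCs and MyPs were 1505 and 1004 of the P0 HP cells.

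HSPC or LymP clusters led for Hmga2 at each stage, but not all progenitor codes were high: P0 MyP3 was at 12.4 CPM, adult MyP5 at 1.34 and adult EryP2 at 0.232. Of the adult clusters of few UMIs, Mast4ii was at 61.9 CPM (7 UMIs) and MyP4 at 60.8 (36 UMIs), copies included. Without copies the adult MyP class held 23 Hmga2 UMIs, and 10 when MyP4 was left out as well. HSPC1 led at E16.5 with 186 CPM, against 73.9 in the next cluster, Eos/Bas1. At E18.5 HSPC2 was at 356 CPM and MyP1 at 285, against 111 in MyP2. At P0 LymP was at 534 CPM, HSPC2 at 297 and HSPC3 at 273. In the adult HSPC5 was at 38.0 CPM, against 14.0 in T/NK and 8.51 in MegP2. The leading genes of E16.5 HSPC1 were Cd209a, Shisa8, Flt3, Hoxa9, Cd74 and H2-Eb1, and all 5 dendritic markers were above its peer clusters. P0 HSPC4, at 160 CPM, had all 5 myeloid progenitor markers above its peers, as had P0 MyP2 and MyP3. Above its peers does not mean above every other cluster. For neither HSPC code was the HSPC list the best match.

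The P0 to adult ratio of Hmga2 varied between classes. Without copies it was 6.89 in HSPCs, where 8203 UMIs at P0 and 206 in adult cells gave 263 and 38.1 CPM. It was 30.3 in MyPs (66.3, 36.0 to 138, without MyP4), 26.2 in erythroid and megakaryocytic cells, 60.4 in B cells and 17.1 in monocytic and dendritic cells, and 5.55 in eosinophils and basophils. T cells gave 4.76 from 7 adult UMIs. MyP4, part of the adult MyP class, has a median of 570 UMIs and had all 5 erythroid markers above its peers, as had adult EryP2. These are differences between single libraries, and the difference between classes was not tested. After thinning to 1000 UMIs, an Hmga2 UMI was found in 15.7% of HSPCs at E16.5, 26.5% at E18.5, then 24.3% at P0 and 4.68% in adult cells (3.16 to 6.66), against 0.193% of adult neutrophils. P0 LymP cells reached 36.8%.

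**Figure D3:**
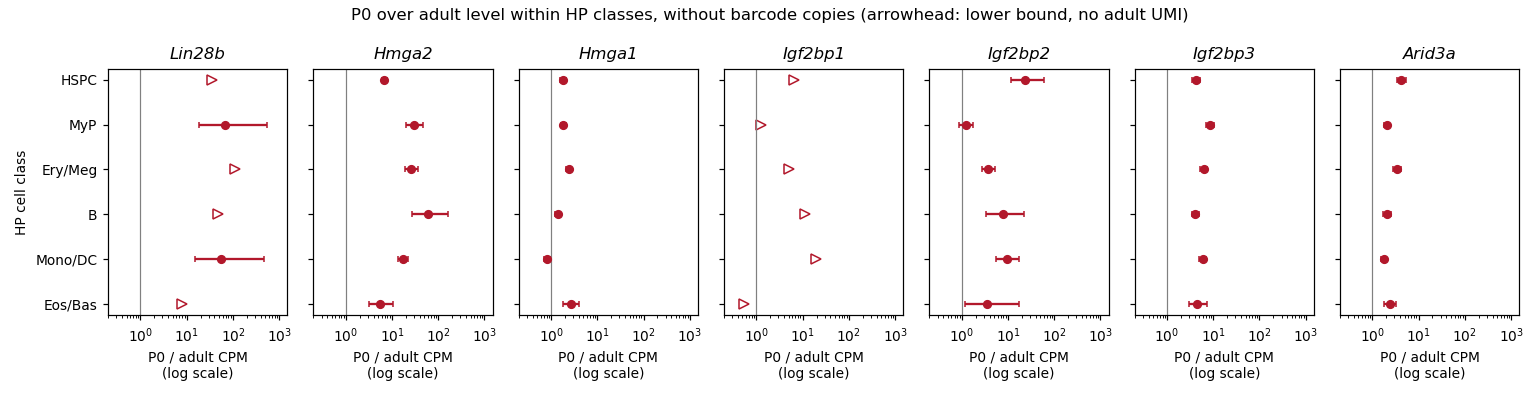
Ratio of P0 to adult CPM within HP classes for each gene, without barcode copies, on a log axis; bars are exact conditional 95% intervals (counting error only), arrowheads are lower bounds where the adult class had no UMI, and the grey line marks equal levels. Across the 6 classes drawn, Hmga2 runs from 5.55 in eosinophils and basophils to 60.4 in B cells, Igf2bp3 stays between 4.10 and 8.31, and Hmga1 and Arid3a stay below 5 in every class.

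In stroma Hmga2 was at 25.4, 18.8, 19.4 and 3.97 CPM from E16.5 to adult, so P0 was 4.88-fold above adult (4.38 to 5.45). Schwann cells (65.6 CPM) and the fibroblast-coded cluster F2 (52.6), which leads with bone matrix markers, were highest at E16.5, and muscle cells of P-2 lowest at 3.25. Without copies HPs were 1.16-fold above stroma at E16.5, 7.80-fold at E18.5, 6.99-fold at P0 and 1.58-fold in the adult.

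Hmga1, the second chromatin protein gene, was at 35.5 and 42.5 CPM in E16.5 HPs, 61.8 at E18.5, then 63.3 at P0 and 36.8 in adult cells. The adult value lies between both E16.5 values, and the edgeR log2 fold change of adult against E16.5 was 0.09 (adjusted p 0.955). P0 was 1.72-fold (1.64 to 1.81) above adult HPs. B-coded clusters were highest at each stage: Bcell1 at 82.2, 83.4 and 84.5 CPM from E16.5 to P0, and Bcell4 at 95.7 in the adult. The class ratio of P0 to adult was 1.38 in B cells, 1.81 in HSPCs and 0.816 in monocytic and dendritic cells, the only class of at least 50 cells in both libraries that was higher in the adult. Stroma was at 1.44 to 4.06 CPM, with HPs 11.4-fold to 25.5-fold higher without copies, and endothelial cells (ECs) were the highest stromal cluster at E16.5 with 11.5 CPM. The near copy Hmga1b was counted at 1.07 to 3.82 CPM in HP libraries.

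Among the mRNA-binding proteins of the IGF2BP family, Igf2bp1 was lower at each later stage. It was at 31.1 and 35.8 CPM in E16.5 HPs, 8.43 at E18.5, then 2.22 at P0 and 0.169 in adult cells, and each stage lies below all earlier ones. In the adult HP library 10 Igf2bp1 UMIs were found, 8 of them in copies, and none was left outside copies and clusters of few UMIs. The edgeR log2 fold change against E16.5 was -2.09 at E18.5 (adjusted p 0.343), -3.92 at P0 (adjusted p 0.0639) and -7.44 in adult cells (adjusted p 0.00740). Without copies the adult value was -9.73 (edgeR adjusted p 0.000826), and the P0 difference passed in edgeR, at -3.98 with an adjusted p of 0.0253. The ratio of P0 to adult HPs was 13.1 with all cells and 63.3 (17.4 to 526) without copies. It was 1.95 as a mean of per-cell CPM, and with classes weighted equally it turned to 0.823, where the mast class that is mostly copies in the adult counts as much as any other. DESeq2, with copies, called it at E18.5 (adjusted p 0.0204) and at P0 (adjusted p 1.64e-08).

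At E16.5 Igf2bp1 was spread over all HP clusters, from 10.2 CPM in Neu1 to 53.1 in TCell2 and 54.2 in UD2, a cluster that leads with fibroblast genes. At E18.5 Mast3 (20.9) and HSPC2 (16.6) were highest, at P0 no ranked cluster exceeded 7.56 (Mono1), and in the adult 14 of 14 ranked clusters had no UMI. Clusters of few UMIs reached 21.8 CPM at E18.5 (UD2ii, 7 UMIs), 31.6 at P0 (Mast4, 6 UMIs) and 35.4 in the adult (Mast4ii, 4 UMIs). Stroma had the same order, with 21.6, 11.1, 7.06 and 0.0762 CPM from E16.5 to adult, and P0 was 92.2-fold (44.6 to 230) above adult without copies. Without copies the ratio of HP to stromal level was 1.63 at E16.5, 0.759 at E18.5 and 0.307 at P0, so stroma was the higher compartment at E18.5 and P0. In the adult HPs were the higher with copies, and without them 2 HP and 7 stromal UMIs gave 0.447 (0.0453 to 2.35), which spans equal levels. Igf2, a growth factor gene of the stroma, was at 130 CPM in E16.5 stroma. The E16.5 HP libraries held it at 0.859 and 1.01 CPM. Over all HP cells its edgeR log2 fold change against E16.5 was -2.70 (E18.5), -4.28 (P0) and -5.51 (adult). None passed (edgeR adjusted p 0.795, 0.369 and 0.157). Whether stromal RNA in HP droplets adds to the Igf2bp1 level of any stage or cluster, such as UD2, was not tested.

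Igf2bp2 was higher in stroma than in HPs at all 4 stages. It was at 51.7, 48.1, 42.5 and 5.99 CPM in stroma from E16.5 to adult, and at 5.87 and 4.3, 18.6, 14.5 and 2.18 CPM in the HP libraries. Without copies stroma was above HPs by 11.5-fold at E16.5, 2.57-fold at E18.5, 2.93-fold at P0 and 2.78-fold in the adult. Schwann cells had the highest level at E16.5, E18.5 and P0 (130, 122 and 108 CPM). Adult stroma has no cluster coded Schwann, so their adult level is not known. Of the adult stromal clusters the muscle cells of P1 (27.0), F13 (18.9) and the Cxcl12-abundant reticular cells (CARs, 14.0) led. In HPs it was highest in HSPC2, at 44.1 CPM at E18.5 and 38.7 at P0, and the P0 to adult ratio was 23.8 in HSPCs (11.5 to 59.3) and 1.22 in MyPs (0.862 to 1.76). From E18.5 to the adult the MyP ratio was 4.45 (3.24 to 6.26). The highest ranked adult HP cluster was MegP2 at 8.51 CPM (5.89 to 11.9), and Mast4ii held 1 UMI, 8.85 CPM.

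Igf2bp3 was steady in HPs before adulthood. It was at 65.8 and 84.7 CPM in E16.5 HPs, 77.6 at E18.5, then 78.8 at P0 and 13.6 in adult cells, and at 41.7, 27.4, 26.6 and 2.68 CPM in stroma, where E16.5 was 1.52-fold (1.45 to 1.59) above E18.5. From E16.5 to P0 the HP values lie within the E16.5 pair, and the adult lies below. The edgeR log2 fold change of the adult was -2.29 (adjusted p 0.0953) and passed narrowly without copies (edgeR adjusted p 0.0499), and DESeq2 called it with copies (adjusted p 0.000898). Over HP clusters the highest level was 1.67 times the lowest at E16.5, 3.50 times at E18.5 and 2.76 times at P0, with P0 LymP (127) and BCell2 (120) at the top. Unlike Lin28b and Igf2bp1, Igf2bp3 was found in 14 of 14 ranked adult HP clusters, from 6.82 CPM in EryP2 to 51.1 in Pre/Pro-B2 (29 UMIs in 246 cells, 34.2 to 73.4). Pre/Pro-B1 was next at 23.8, while Mast4ii was at 79.6 CPM from 9 UMIs and E18.5 Mast/Bas at 121 from 3.

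Arid3a, the DNA-binding protein gene, was at 81.5 and 41.6 CPM in E16.5 HPs, 80.2 at E18.5, then 59.7 at P0 and 31.7 in adult cells. The E16.5 pair spans the E18.5 and P0 values, and the edgeR log2 fold change of the adult was -0.76 (adjusted p 0.579). The highest clusters of each stage were myeloid ones: Eos/Bas1 at E16.5 (124 CPM), Mono1iii, Bas1 and Neu2 at E18.5 (340, 243 and 236), Eos/Bas3 at P0 (115) and Neu3 in the adult (90.4). Progenitor clusters came close behind at P0, where LymP was at 101 CPM and MyP3 at 96.8, and at E16.5 HSPC1 was at 92.4. Adult B cells followed Neu3, with Bcell3 at 65.8 and Bcell4 at 55.8 CPM, and erythroid cells were lowest at P0 and in the adult (EryP1 18.7, EryP2 4.65). In neutrophils the P0 to adult ratio was 1.21 (0.575 to 2.24), from 28 P0 cells and 10 P0 UMIs. The E18.5 to adult ratio there was 2.52 (2.00 to 3.16), from 70 E18.5 cells and 91 E18.5 UMIs. In stroma Arid3a was at 3.43 to 4.72 CPM and the adult was the highest library. P0 UD3, which leads with the melanocyte genes Dct, Tyrp1 and Mlana, was at 24.2 CPM, adult CARs at 21.0 and E18.5 ECs at 19.1. The UD3 level rests on few UMIs, from 129 cells with a median of 1873 UMIs.

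**Figure D4:**
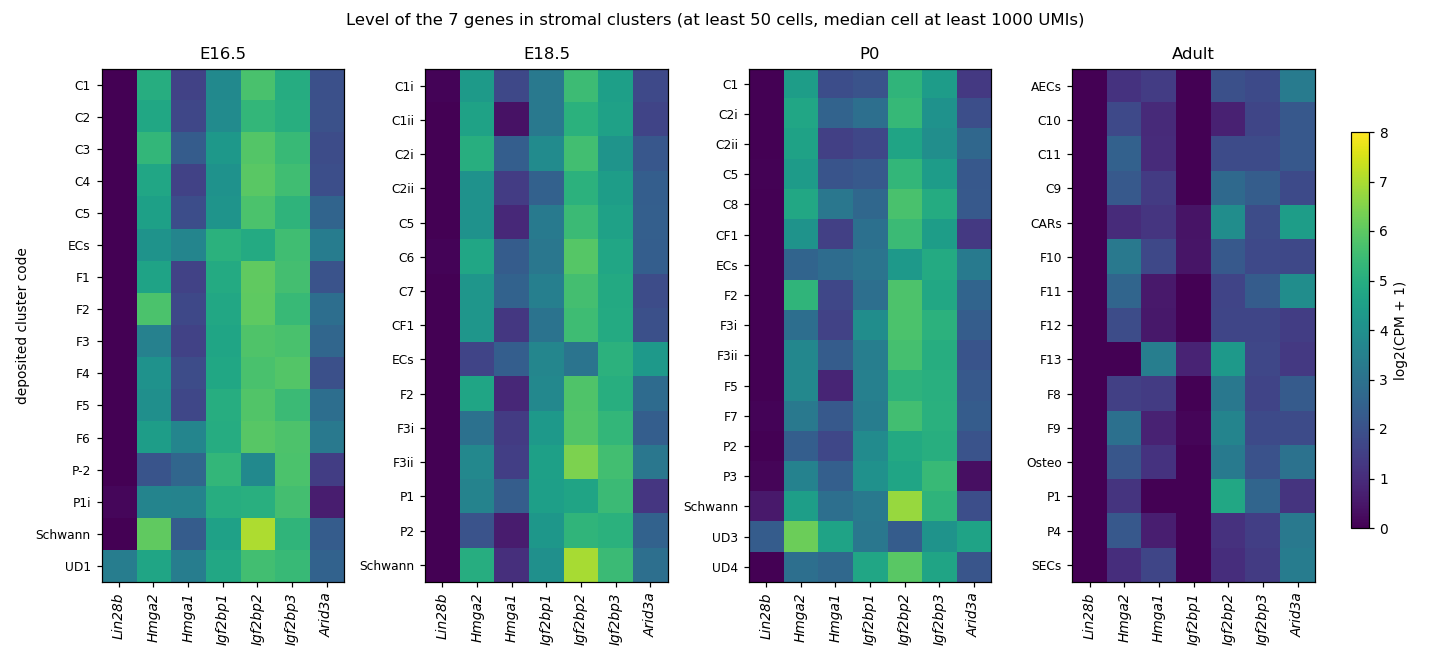
Level of the 7 genes in stromal clusters of at least 50 cells and a median of at least 1000 UMIs, as color on a log2(CPM + 1) scale, with clusters in rows, genes in columns and 1 panel per stage. Igf2bp2 and Igf2bp3 are bright in nearly all clusters from E16.5 to P0 with Schwann cells highest for Igf2bp2, and Igf2bp1 is at 0 in 11 of 15 adult clusters. Lin28b is near 0 apart from UD1 at E16.5 and UD3 at P0. UD3 has 129 cells with a median of 1873 UMIs, and the whole P0 stromal library held 6 Lin28b UMIs.

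Stages were also compared within the clusters coded as mast, which held 259 and 1804 cells at E16.5, 203 at E18.5, then 534 at P0 and 321 in the adult HP library. Of 11394 genes, 7.05% passed edgeR's test at E18.5 (5.18% higher, 1.87% lower), 10.7% at P0 (8.48% higher, 2.24% lower) and 2.09% in adult cells (2.05% higher, 0.0351% lower). The code does not stand for 1 uniform cell type. Of the 534 P0 cells, 274 are in Mast4, which leads with Col3a1, Col2a1 and Col1a1 and had all 5 fibroblast markers above its peers. E16.5 Mast2ii had all 5 eosinophil and basophil markers above its peers, and adult Mast4ii leads with the macrophage genes C1qb, C1qc and C1qa. Copies were 42 of the 203 cells at E18.5 (20.7%) and 211 of the 534 at P0 (39.5%), and for 150 of these 211 the largest cell was in the first E16.5 HP library. In the adult 263 of the 321 cells were copies (81.9%), for 255 of them with the largest cell in the first E16.5 HP library. Outside copies the adult mast sum held 71257 of its 263064 UMIs, so the adult result cannot be read as one about adult mast cells. Of the 7 genes, 1 passed at E18.5, then 2 at P0 and 0 in adult cells, where 1100 genes had an unadjusted p under 0.05 and DESeq2 called 138.

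Igf2bp2 in mast cells was at 3.12 and 2.94 CPM at E16.5, 10.2 at E18.5, then 12.2 at P0 and 7.60 in adult cells. The adult value rests on 2 UMIs (0.921 to 27.5 CPM), and without copies the same 2 UMIs gave 28.1 CPM (3.40 to 101). Both perinatal values exceed both E16.5 values, with an edgeR log2 fold change of 1.65 at E18.5 (adjusted p 0.0193) and 1.96 at P0 (adjusted p 0.00369). Without copies these were 1.54 (edgeR adjusted p 0.00556) and 1.77 (edgeR adjusted p 0.000551). Igf2bp1 in mast cells was at 36.2 and 32.0 CPM at E16.5, 20.8 at E18.5, then 6.57 at P0 and 30.4 in adult cells. It was lower at P0 by edgeR, at a log2 fold change of -2.43 (adjusted p 0.000427, and 8.35e-11 without copies), and at E18.5 the value was -0.82 (adjusted p 0.127, and 0.0424 without copies). DESeq2 called neither gene at E18.5 or P0 (adjusted p at P0 0.0629 for Igf2bp1 and 1 for Igf2bp2).

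The adult mast value of Igf2bp1 came from 8 UMIs, 6 of them in copies, and the 58 adult mast cells that are not copies held 2 Igf2bp1 UMIs, 1 of Lin28b, 3 of Hmga2 and 5 of Igf2bp3. Their levels were 14.0 CPM for Lin28b and 70.2 for Igf2bp3, and what these cells are was not tested. Hmga2 in mast cells was at 49.8 and 32.0 CPM at E16.5, 78.3 at E18.5 and 57.9 at P0, and Lin28b at 10.3 and 9.33, 14.4 and 13.4 CPM. Neither passed the test at any stage.

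Phenotypic long-term stem cells (phLT-HSCs) were gated on antibody counts as Sca-1+CD135-CD48-CD150+, which gave 10 and 28 cells at E16.5, 33 at E18.5, then 114 at P0 and 134 in adult cells. Hmga2 had no UMI in the first E16.5 library and was at 12.3 CPM in the second, then at 254 CPM at E18.5 (216 to 296), 211 at P0 and 8.39 in adult cells (3.37 to 17.3). Igf2bp2 was also highest at E18.5 and P0, at 0 and 3.51 CPM at E16.5 and then 86.6, 54.3 and 5.99. Lin28b was at 5.43 (1 UMI), 28.1, 14.2 and 16.5 CPM up to P0, and 0 adult UMIs, set at 3, allow up to 3.59 CPM. Igf2bp3 was at 103 and 82.5 CPM at E16.5, 66.1 at E18.5, then 69.4 at P0 and 18.0 in adult cells. The antibody cutoffs are not those of the study, so other cells than its phLT-HSCs may be included. With the lower cutoff of 0.75, 11 and 56 E16.5 cells gave Hmga2 at 14.3 and 23.5 CPM and Igf2bp2 at 9.51 and 2.04, E18.5 Igf2bp2 at 57.6, adult Igf2bp3 at 11.5 and 1 adult Lin28b UMI. With the cutoff of 1.5, 1 and 2 E16.5 cells were left and adult Igf2bp2 was at 9.97 CPM, with E18.5 and P0 Igf2bp1 at 12.4 and 6.25 against 20.5 and 9.62. What the gate held at E16.5, where T and mast cells are in the sort, was not tested.

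The 7 genes did not share a single pattern over clusters. Over 49 HP clusters of E16.5 to P0, on log2(CPM + 1), Pearson's r was 0.795 between Hmga2 and Igf2bp2, 0.781 between Lin28b and Hmga1, and 0.347 between Lin28b and Hmga2. For Arid3a r was -0.549 with Lin28b and -0.466 with Hmga1. With the adult clusters added, 63 in all, these were 0.244 and -0.201, so the sign with Lin28b turned. Over the same 63 clusters r was 0.806 between Hmga2 and Igf2bp2, 0.461 between Lin28b and Hmga1, and 0.632 between Lin28b and Hmga2. Over 48 stromal clusters of E16.5 to P0 Igf2bp1 and Igf2bp3 gave 0.813. Clusters of a stage share a library and its depth, so these values are descriptions.

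**Figure D5:**
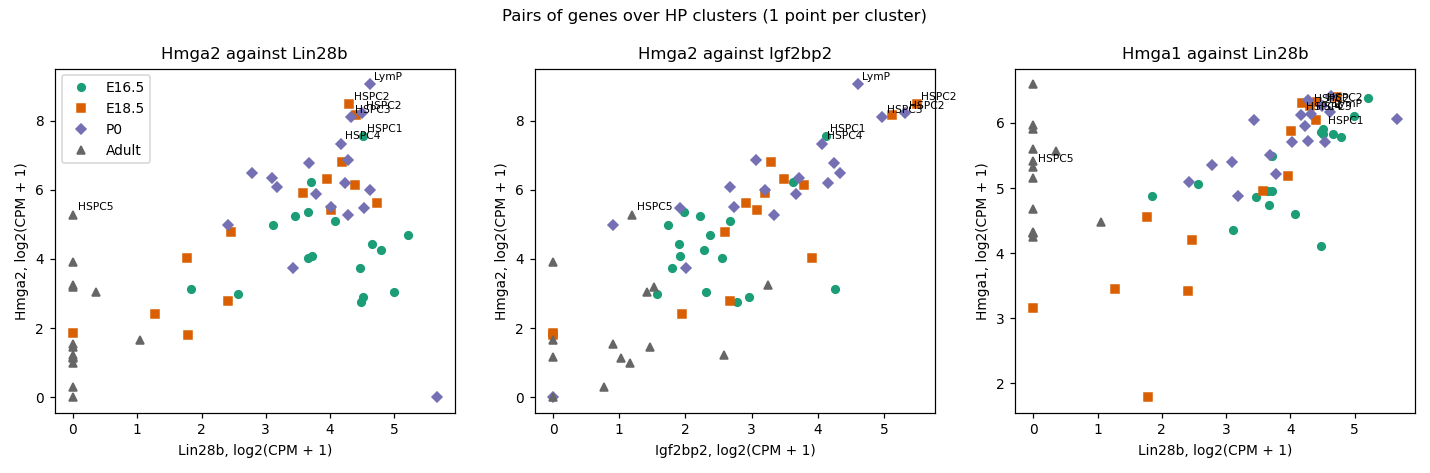
Levels of gene pairs over HP clusters, as log2(CPM + 1) on both axes, 1 point per cluster of at least 50 cells and a median of at least 1000 UMIs, marked by stage. HSPC and LymP clusters lie at the top for Hmga2, where Igf2bp2 is high as well (r = 0.795 over 49 clusters of E16.5 to P0), whereas Lin28b and Hmga2 give r = 0.347 over the same clusters and 0.632 over all 63, and 12 of 14 adult clusters sit at 0 for Lin28b.

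The genes most like the members were sought over 135 clusters of both compartments among 9604 genes. Lin28b was nearest to Dnajc2 (r = 0.854), Psma1 and Hnrnpf, and Igf2bp3 to Hnrnpc (0.850), Psma5 and Sub1. Hmga2 had its nearest genes at Npm1 (0.652), Rpl5 and Mif, and Hmga1 at Myb (0.895), Cd48 and Fcho1. Igf2bp1 was nearest to Eif4e2 (0.745), 0610012G03Rik and Tpt1, and Igf2bp2 to the imprinted or growth-linked genes Dlk1 (0.810) and Gpc3, with Sfr1. These r values rest on clusters that share libraries.

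In whole HP libraries no gene of the let-7 lists passed edgeR's test, while H19, from the list of transcripts bound or raised by these proteins, did. Of 12 measured genes that process or degrade let-7 precursors (among them Dicer1, Drosha and Dis3l2), none passed edgeR's test against E16.5 at any stage over all HP cells, and of 28 other known let-7 targets none did, beside 0.00621% of all genes at E18.5, then 0.292% at P0 and 2.35% in adult cells. DESeq2 called Lin28a higher and Map4k4, a target, lower in the adult. The median edgeR log2 fold change of those targets was 0.34 at E18.5, then 0.21 at P0 and -0.30 in adult cells, against -0.0040, 0.02 and 0.01 over all genes tested. In mast cells 7 of 26 measured targets were higher at P0 (Plag1, Tgfbr1, Cdk6, Igf1r, Insr, Irs2 and Zbtb16) and 1 lower (Acvr1b), beside 8.48% higher and 2.24% lower among all genes tested there. At E18.5 the mast count was 4 higher and 0 lower, beside 5.18% and 1.87%. In the adult, where 81.9% of the mast cells are copies, Ccnd1 alone was higher, beside 2.05%. DESeq2 called none of these targets in mast cells at any stage, and 120 genes in all at P0 against 1221 by edgeR. In mast cells Drosha was higher and Prkra lower at E18.5, of 10 processing genes tested, and DESeq2 called neither.

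The highest levels of the paralog Lin28a at E16.5, E18.5 and in adults were in neutrophil clusters, at 24.4 CPM in adult Neu3 from 142 UMIs, 22.1 in E18.5 Neu2 and 12.1 in E16.5 Neu1, which were at or below 12.1 CPM for Lin28b. At P0 Neu2 had no Lin28a UMI, but its 28 cells are too few to rank it. Of the other P0 clusters MyP3 was highest at 10.6 CPM from 88 UMIs, and its leading genes include the neutrophil markers Camp, S100a8 and S100a9. Across HP libraries Lin28a was at 0.572 and 0.313 CPM at E16.5, 1.73 at E18.5, then 1.35 at P0 and 3.78 in adult cells, so its highest library was the one with the least Lin28b. That library also held the most neutrophil-coded cells, 528 in Neu3 against 74, 71 and 28 at E16.5, E18.5 and P0. A change of Lin28a beyond this was not tested. Stroma held 3 Lin28a UMIs in all. Arid3b, the paralog of Arid3a, was at 47.0 CPM in E18.5 Mono2 and 46.2 in Bas1. H19, an imprinted transcript that carries let-7 binding sites, was at 183 and 298 CPM in E16.5 HPs, 25.8 at E18.5, then 7.90 at P0 and 1.06 in adult cells. Over all HP cells it was the gene of the 5 transcripts bound or raised by these proteins that passed edgeR's test, lower in the adult. DESeq2 called it lower at all 3 later stages. In mast clusters H19 was lower at P0 by edgeR, at a log2 fold change of -1.79 (adjusted p 0.00638).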

How the data were processed

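The authors deposited raw UMI counts per gene and cell from Chromium 3′ v3.1 libraries, antibody tag counts of the same cells, and a table with each cell's library, stage, compartment and cluster. The submitters' notes name Cell Ranger 3.1.0, R 4.0, Seurat 3.1.5 and mm10. Cells had passed the authors' filters, and 12 per-cell columns were not used. Doublets were not called. UMIs were summed per library, class or cluster and given as CPM. Totals per library ran from 13974733 to 194892476 UMIs, and intervals cover counting error only.

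Stages were compared with edgeR 4.0.16 in R 4.3.3 (TMM, default filter on low counts, quasi-likelihood test, Benjamini-Hochberg adjusted p of 0.05) on the summed counts of 5 HP libraries. Contrasts share the E16.5 libraries, nothing in the labels says that these came from separate mice, and p-values measure the spread between them only. The code was tested on simulated data. DESeq2 1.42.0, its size factors, no filter, either E16.5 library left out, other cell sets, weights and denominators were alternatives. phLT-HSCs were gated at a centered log-ratio of 1 for 4 of 29 antibodies. 3′ UTRs came from GENCODE vM21 on GRCm38 and were searched as letters. Other steps ran in Python 3.11.15 (matplotlib 3.10.9, pandas 2.3.3, scipy 1.17.1, numpy 2.4.6).

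Genes named are the 7 members, their paralogs, fixed lists of let-7 processing genes, let-7 targets and bound transcripts, and the 3 genes most like each member, which are not reported here for Arid3a. Members and lists were chosen with earlier results of these data known. Analyses without copies or without clusters of few UMIs were added after the data were seen.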

Additional observations from a re-analysis of the deposited data

Results flagged for a closer look

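Each of these 4 results had the opposite direction in HPs and in stroma between the same 2 stages, computed without copies, and the difference between compartments was not tested. Hmga2 at E18.5 was 4.99 times its E16.5 level in HPs and 0.740 times in stroma. Hmga1 was 1.49 times in HPs and 0.671 times in stroma over the same stages. Igf2bp2 was 4.15 times in HPs and 0.930 times in stroma. In the few HP clusters set side by side here the change was smaller. In E16.5 HSPC1 and E18.5 HSPC2, Hmga2 was at 186 and 356 CPM, Igf2bp2 at 16.3 and 44.1, and Hmga1 at 59.2 and 75.4. These 2 codes differ: HSPC1 best matched the dendritic marker list and HSPC2 the HSPC list. In Bcell1 Hmga1 was at 82.2 and 83.4 CPM. None of these 3 genes passed edgeR's main test at E18.5 over all HP cells. Leaving out the first or second E16.5 HP library gave Hmga2 a log2 fold change of 2.32 or 1.49. Arid3a in the adult was 0.527 times its P0 level in HPs and 1.38 times in stroma. Within stromal classes the ratio of P0 to adult was 1.02 (0.814 to 1.29) in chondrocyte-coded, 1.05 (0.864 to 1.29) in fibroblast-coded and 0.954 (0.532 to 1.67) in endothelial cells, each spanning equal levels, and 0.152 (0.0678 to 0.337) in the clusters coded P, from 14 and 15 UMIs.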

How the results depend on the processing

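No paired analysis was possible because the groups compared share fewer than 2 replicate numbers. Leaving out either E16.5 HP library leaves no residual degrees of freedom, so those values have no test. Of the log2 fold changes recomputed with a test, 144 kept direction and side of the threshold, 14 passed only in the alternative, 3 no longer passed, and 7 turned sign without passing. Of those with an E16.5 library left out, 72 kept their sign and 12 turned. The causes were not tested.

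Against E16.5, counts of genes passing over all HP cells at E18.5, P0 and in the adult were 1, 47 and 378. DESeq2 gave 361, 561 and 1164, and no filter beyond 1 count gave 485, 713 and 1515. DESeq2 size factors gave 35 and 78 at E18.5 and P0, and leaving out copies 66 and 141. In mast cells, where the counts were 803, 1221 and 238, DESeq2 gave 105, 120 and 138. No filter gave 1265 at E18.5 and 394 in the adult, leaving out copies 1271 at E18.5, and DESeq2 size factors 359 in the adult. With no filter Hmga2 passed at all 3 later stages over all HP cells (edgeR adjusted p 0.0186, 0.0154 and 0.00450).

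The P0 to adult HP ratio of Lin28b was 350 in cells of at least 1000 UMIs, 349 without clusters of few UMIs, 209 without copies, 25.3 with classes weighted equally, 293 with that and without copies and mast clusters, and 5.79 as a mean of per-cell CPM. The ratio of Igf2bp1 was 32.0 in cells of at least 1000 UMIs, 63.3 without copies, 1.95 as a per-cell mean, and 0.823 with classes weighted equally, where the mast class that is mostly copies counts as much as any other. As per-cell means, Hmga2 gave 7.21, Hmga1 1.56, Igf2bp3 2.95 and Arid3a 1.68. With classes weighted equally Hmga2 gave 5.99, Hmga1 1.61, Igf2bp2 4.37, Igf2bp3 3.51 and Arid3a 2.07. The same without copies and mast clusters gave 9.22 for Hmga2, 1.62 for Hmga1, 4.78 for Igf2bp3 and 2.38 for Arid3a. Hmga2 was 22.4 without clusters of few UMIs. A total without mitochondrial genes, ribosomal protein genes and Gm42418 gave 1.59 for Hmga1, 5.32 for Igf2bp3 and 1.73 for Arid3a. In stroma that total gave 5.88 for Hmga2, 8.56 for Igf2bp2, 11.9 for Igf2bp3 and 0.874 for Arid3a. Per-cell means gave 5.73 for Hmga2 and 5.80 for Igf2bp2, and equal classes 4.32 for Hmga2, 281 for Igf2bp1, 6.27 for Igf2bp2 and 11.7 for Igf2bp3.

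Signs turned for log2 fold changes without a call. For Lin28b at E18.5 DESeq2 gave -0.032, its size factors -0.033 and leaving out copies -0.0016. Without copies, mast Igf2bp3 was -0.016 at P0, and adult mast Lin28b was 0.11, Hmga2 -0.37 and Arid3a -1.90, from 58 cells. Leaving out one or the other E16.5 HP library gave, over all HP cells, Lin28b from -0.31 to 0.38, Igf2bp3 from -0.27 to 0.16 and Arid3a from -0.10 to 0.80 at E18.5. At P0 it gave Lin28b from -0.081 to 0.59, Igf2bp3 from -0.16 to 0.26 and Arid3a from -0.45 to 0.47, and in adults Hmga1 from -0.081 to 0.22. In mast cells it gave Igf2bp3 from -0.41 to 0.12 at E18.5, from -0.18 to 0.36 at P0 and from -0.46 to 0.078 in adults, Hmga2 from -0.26 to 0.32 and Arid3a from -0.031 to 0.38 in adults.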
